A study of Danio rerio with 8 samples.

Results

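Protocadherins are cadherin-family adhesion molecules of the cell surface, and most of them are known from the nervous system. In zebrafish a pair of gene clusters holds long rows of variable exons. Each variable exon carries its own promoter and encodes the extracellular part of 1 protein, and in each subgroup of a cluster the variable exons splice to shared constant exons. A neuron uses few of these promoters, and in mice the resulting proteins bind like to like and help a neuron tell its own branches from those of others. The protocadherins outside the clusters are single genes. Those of the delta family guide cell movement and axon growth, *pcdh12* is known from endothelium in mice, and the *pcdh15* genes serve hair cells and photoreceptors.

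The genes described here are those whose deposited symbol starts with *pcdh*, except *pcdh15a*. There were 65 of them among the 20409 deposited genes, which the study had filtered on their average expression. Of these, 47 belong to the clusters, with 3 in the pcdh1a subgroup, 15 in pcdh1g, 14 in pcdh2a and 15 in pcdh2g. The other 18 lie outside, and the gene whose symbol is *pcdh1a* itself is counted with them, because the RefSeq gene order places it away from the cluster. Of the 65 genes, 61 have a RefSeq entry. A second gene deposited as *pcdh20* carries the name *pcdh20l* there and is called so here. In the RefSeq table, 14 of 15 pcdh1g genes and 11 of the 14 pcdh2g genes with an entry share 1 end, where the constant exons lie, and so do all 3 pcdh1a genes and all 11 pcdh2a genes with an entry. Reads from these shared exons cannot by themselves be told apart between the genes of a subgroup, so the split of a subgroup's reads among its genes is an estimate. The rows of *pcdh2ab6* and *pcdh2ab7* were identical in all libraries, as were those of *pcdh2g28* and *pcdh2g29*, which leaves 63 distinct rows.

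RNA of whole, untreated zebrafish larvae at 4 dpf (days post-fertilization) was measured in 8 libraries. The 4 *elipsa* mutant libraries came from larvae homozygous for a mutation of *traf3ip1*, a component of intraflagellar transport without which cilia are lost, and these larvae were picked by their downward curled tail. The 4 control libraries came from siblings that were a mixture of wild-type and heterozygous animals. Each of 4 clutches gave 1 control and 1 mutant library, each from a tube of 30 pooled larvae, so a library is an average over animals and over all tissues. Because whole larvae were used, fewer cells of a type and less RNA per cell cannot be told apart. Values are log2 CPM (counts relative to the library total), and their depth is unknown. The deposited values look quantile-normalised, a step the sources used here do not name: sorted, the libraries nearly coincide, and the muscle actin gene *actc1b* is at 14.04 in all 8. A value thus follows the rank of a gene within its library. Differences, SDs and summed CPM below are all on this rank-matched scale. They are not per length, so levels are compared between libraries and not between genes.

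The mutated gene followed the labels. *traf3ip1* stood at 3.03, 2.63, 2.81 and 2.78 in controls 1 to 4 and at 2.36, 1.88, 1.61 and 2.09 in mutants 1 to 4, a difference of -0.83 (SE 0.18, adjusted p = 0.0751, limma). Markers of muscle, epidermis, neurons and photoreceptors were all present. Of 9 photoreceptor markers, 7 were lower in mutants at an adjusted p under 0.1 by the same test (1.16% of all genes were). Only 1 of the 9 had a positive difference. The summed level of the 9 was 3640 to 7103 CPM in controls and 1094 to 1204 CPM in mutants.

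A gene was called at a Benjamini-Hochberg adjusted p under 0.1 over all 20409 genes. Of the 65 protocadherins, only *pcdh2g7* was called, and it rose. None fell. Over all genes, 0.363% were called higher and 1.16% lower, and the 1 protocadherin of 65 is to be read against these shares. At an unadjusted p under 0.05, 6 protocadherins were higher and 0 lower, beside 5.84% and 6.11% of all genes. When the clutch entered the fit as a block, 10 protocadherins were called higher, 9 in the clusters and 1 outside, and 0 lower. All genes were called higher in 6.48% and lower in 7.86% under that block. The 10 genes are *pcdh2g7*, *pcdh2g3*, *pcdh2g10*, *pcdh2g5*, *pcdh2g28*, *pcdh2g29*, *pcdh1g1*, *pcdh1g32*, *pcdh2ac* and *pcdh12*. As *pcdh2g28* and *pcdh2g29* share a row, these are 9 distinct rows. Over the 63 distinct rows of protocadherins, the libraries of a clutch deviated together less than over all genes in clutches 1 and 4, with correlations of 0.234, 0.372, 0.399 and 0.0853 for clutches 1 to 4. Control 1 correlated best with mutant 4, control 4 with mutant 3 and mutant 4 with control 1.

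Most differences were small. A difference below 0.25 on the log2 scale, in either direction, was seen in 50 of the 65 protocadherins (76.9%) and in 76.1% of all genes. At least 0.5 was reached by 4 of the 65 protocadherins and by 1568 of all 20409 genes. The direction was uneven: 55 of 65 differences were positive (84.6%), 40 of 47 in the clusters and 15 of 18 outside, against 57.6% of all genes. The median difference was 0.14 in the clusters and 0.06 outside, and 0.03 over all genes. Mutants lay above controls in every clutch for 18 of 65 protocadherins (18.0% of all genes did so) and below in every clutch for 1 (14.4% of all genes). The 4 mutant values all lay above the 4 control values for *pcdh2g7* and *pcdh1gc5* (3.55% of all genes), and all below for no protocadherin (3.34% of all genes). The members share reads and clutches and are not independent of each other.

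**Figure D1:**
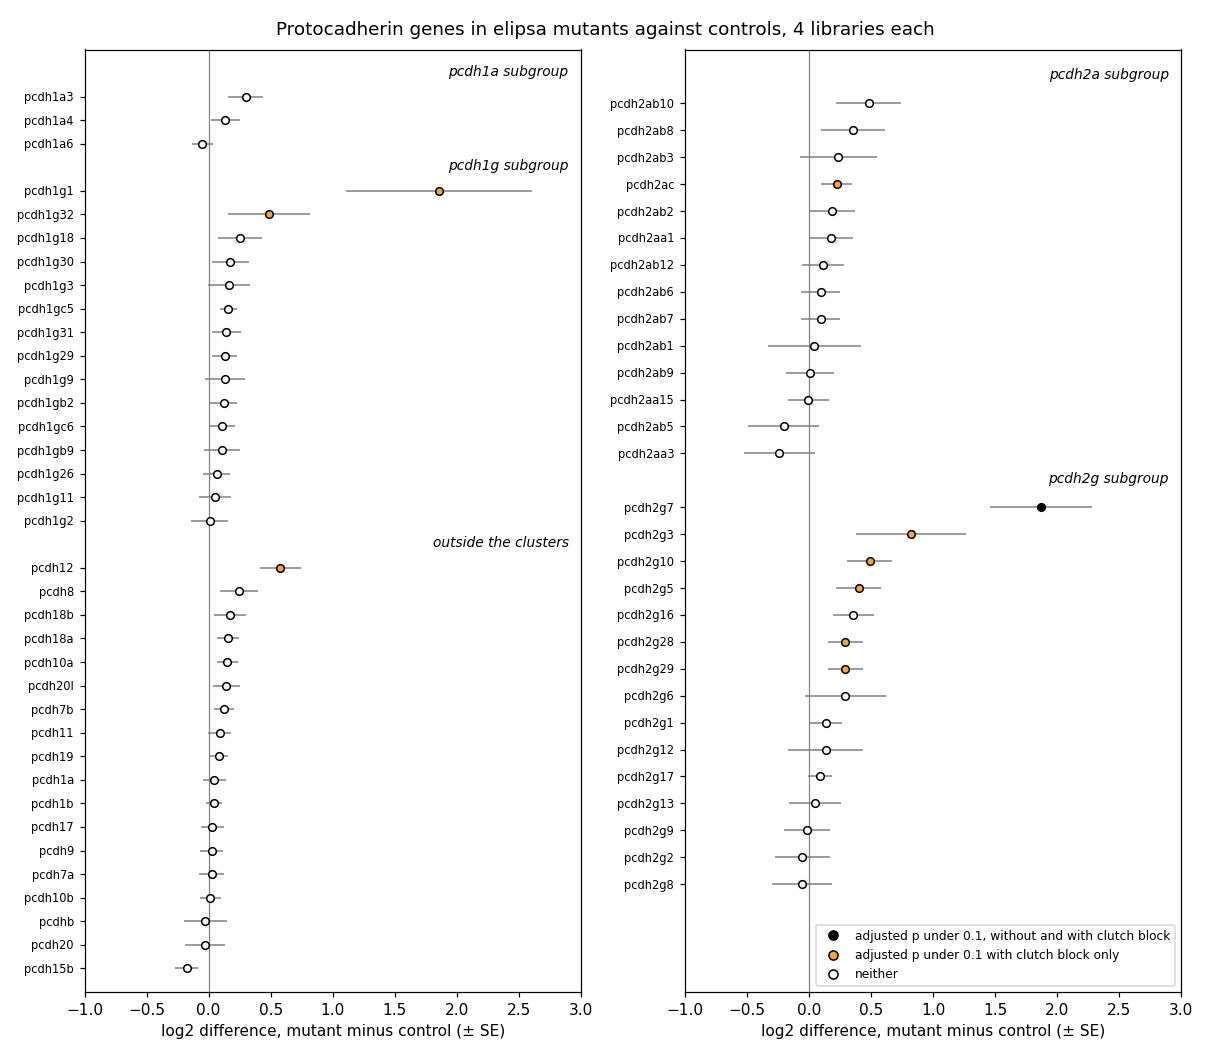
Log2 difference of mutants minus controls (x axis) for each of the 65 protocadherins (rows), grouped by subgroup, with bars for the SE of the limma fit. *pcdh2g7* is the only filled black point, at 1.87, and *pcdh1g1* lies close to it, at 1.85. Orange points are genes called with the clutch block only. Most other points lie between 0 and 0.5.

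In the pcdh2g subgroup, 12 of 15 differences were positive (57.6% of all genes), with a median of 0.29. With the clutch block, 6 of its genes were called higher (6.48% of all genes), including *pcdh2g28* and *pcdh2g29*, whose rows are identical. The gene with the largest difference was *pcdh2g7*. Its log2 CPM was 0.11, -0.03, 1.33 and 1.77 in controls of clutches 1 to 4 and 2.65, 2.08, 2.82 and 3.11 in mutants. The lowest mutant, that of clutch 2, lay above the highest control, that of clutch 4, so the groups did not overlap, although the controls of clutches 3 and 4 stood well above those of clutches 1 and 2. The mean was 0.80 ± 0.89 over controls and 2.66 ± 0.43 over mutants (SD, n = 4 each). The gene rose by 1.87 on the log2 scale, or 3.65-fold (SE 0.41, adjusted p = 0.0844, limma). With the clutch as a block the SE was 0.21 and the adjusted p was 0.00112. The differences within clutches 1 to 4 were 2.54, 2.11, 1.48 and 1.34.

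The call of *pcdh2g7* without the block was close to the threshold. It was kept in 2 of 8 fits that left out a single library, those without control 1 and without control 4, and was lost in the other 6, with an adjusted p of up to 0.234. It was also lost without the mean-variance trend (adjusted p = 0.110). When 1 CPM was added before taking logs, the call was kept (adjusted p = 0.0562), but the difference shrank from 1.87 to 1.38. Leaving out any 1 clutch without the block lost the call, with an adjusted p of up to 0.379. In the blocked fit, leaving out any 1 clutch kept it, with adjusted p from 0.0041 to 0.0061.

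On the linear scale *pcdh2g7* held 0.670%, 0.782%, 1.77% and 2.18% of the summed pcdh2g level in controls 1 to 4 and 3.98%, 2.62%, 4.23% and 4.74% in mutants. In each clutch the mutant share was the larger, but it rests on the estimated split of the subgroup's reads among its genes. Its neighbours in the row of variable exons did not pass the test. *pcdh2g6* differed by 0.29 (adjusted p = 0.773) and *pcdh2g8* by -0.06 (adjusted p = 0.952). The summed level of the pcdh2g subgroup without *pcdh2g7* had a mean of 144 ± 15.9 CPM over controls and 161 ± 9.0 CPM over mutants (SD, n = 4 each).

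The other pcdh2g genes called with the block did not pass the test without it. *pcdh2g3* was at 0.68, -1.21, 0.67 and 0.78 in controls and at 1.36, 0.42, 1.12 and 1.30 in mutants, a difference of 0.82 (SE 0.44, adjusted p = 0.503, and 0.0689 with the block). The control of clutch 2 stood far below the other 3, and the groups overlapped. Without any 1 clutch the blocked call was lost, with adjusted p from 0.121 to 0.180.

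*pcdh2g10* was at 2.90, 2.57, 2.82 and 3.34 in controls and at 3.08, 3.43, 3.43 and 3.65 in mutants. The control of clutch 4 reached above the mutant of clutch 1, so the groups overlapped. The difference was 0.49 (SE 0.18, adjusted p = 0.327, and 0.0503 with the block).

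*pcdh2g5* was at 3.52, 3.69, 3.40 and 2.80 in controls and at 3.72, 3.90, 3.69 and 3.70 in mutants. The controls spread over a wider range than the mutants, and the control of clutch 2 reached the mutants' level. The difference was 0.40 (SE 0.18, adjusted p = 0.415, and 0.0924 with the block).

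The shared row of *pcdh2g28* and *pcdh2g29* was at 3.73, 3.48, 3.79 and 4.01 in controls and at 3.99, 3.96, 3.88 and 4.34 in mutants. The control of clutch 4 lay above 3 of the 4 mutants. The difference was 0.29 (SE 0.14, adjusted p = 0.454, and 0.0819 with the block). In blocked fits without 1 clutch, *pcdh2g10* was called in 1 of 4, and *pcdh2g5* and the shared row in 0 of 4.

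**Figure D2:**
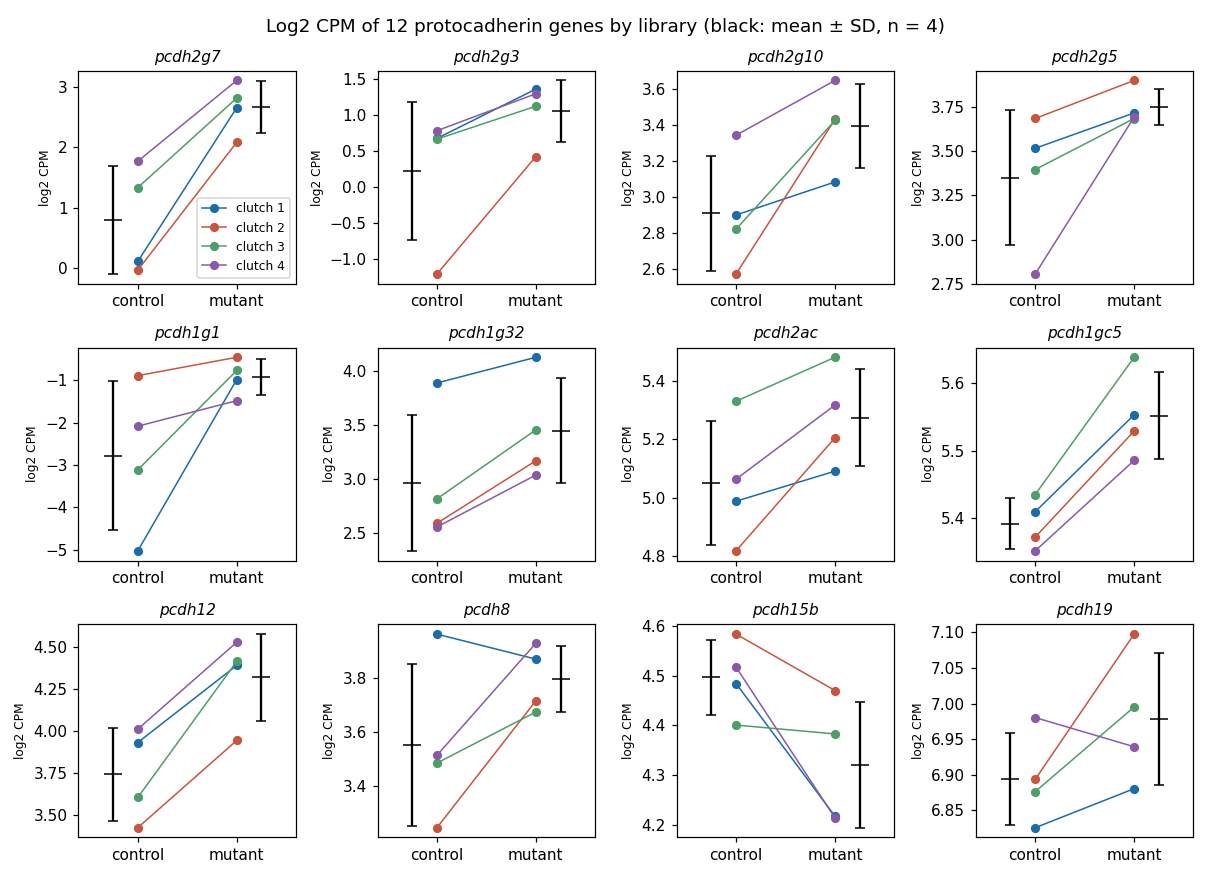
Log2 CPM (y axis) of named protocadherins in each control and mutant library, with the libraries of a clutch joined by a line and black bars for the mean ± SD (n = 4). The 4 mutants of *pcdh2g7* lie above all its controls, while *pcdh12* is higher in mutants within each clutch although its groups overlap.

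The pcdh1g subgroup leaned the same way in all its genes. All 15 differences were positive (57.6% of all genes were), with a median of 0.13. In every clutch 6 genes were higher in mutants (18.0% of all genes). None passed the test without the block, and 2 did with it, both higher (6.48% of all genes). *pcdh1g1* was at -5.02, -0.89, -3.11 and -2.08 in controls and at -0.98, -0.46, -0.77 and -1.48 in mutants. The first value is the lowest in the table, and control 2 lay above 2 of the 4 mutants. Its difference of 1.85 (SE 0.75, adjusted p = 0.375, and 0.0900 with the block) shrank to 0.34 when 1 CPM was added before taking logs (adjusted p = 0.160 with the block). The blocked call was kept in 1 of 4 fits without a clutch.

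*pcdh1g32* was at 3.89, 2.59, 2.81 and 2.55 in controls and at 4.13, 3.17, 3.46 and 3.03 in mutants. Both libraries of clutch 1 stood above all others, and the groups overlapped. The difference was 0.49 (SE 0.33, adjusted p = 0.605), and with the block the SE was 0.10 and the adjusted p 0.0240. Without clutch 3 this call was lost.

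The C-type genes are a class of variable exons that most neurons use in mice. *pcdh1gc5* was at 5.41, 5.37, 5.44 and 5.35 in controls and at 5.55, 5.53, 5.64 and 5.49 in mutants. Its groups did not overlap, but the step was small, at 0.16 (SE 0.07, adjusted p = 0.401, and 0.114 with the block). *pcdh1gc6*, which is among the 3 clustered genes with the highest log2 CPM, differed by 0.11 (adjusted p = 0.727). The other clustered genes with the highest log2 CPM, named for that alone, were *pcdh1g26*, with a difference of 0.06 (adjusted p = 0.860), and *pcdh1g9*, with 0.13 (adjusted p = 0.801).

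In the pcdh2a subgroup 11 of 14 differences were positive (57.6% of all genes), with a median of 0.10. The C-type gene *pcdh2ac* was at 4.99, 4.82, 5.33 and 5.06 in controls and at 5.09, 5.21, 5.48 and 5.32 in mutants. Mutants were higher in each clutch, while the control of clutch 3 lay above 3 mutants. The difference was 0.22 (SE 0.12, adjusted p = 0.518, and 0.0801 with the block), and the blocked call was kept in 1 of 4 fits without a clutch. *pcdh2ab10* stood just outside the threshold with the block, at a difference of 0.48 and an adjusted p of 0.1003, and is named after its values were seen.

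The largest negative differences among clustered genes were also in pcdh2a and did not pass the test. *pcdh2aa3* was at 1.64, 0.93, 0.77 and 0.69 in controls and at 0.82, 0.66, 0.25 and 1.34 in mutants, a difference of -0.24 (adjusted p = 0.788). *pcdh2ab5* was at 2.67, 1.76, 1.55 and 1.80 in controls and at 1.24, 2.15, 1.54 and 2.03 in mutants, a difference of -0.20 (adjusted p = 0.83). In both genes control 1 was the highest library and the groups overlapped. In the pcdh1a subgroup the 3 differences ran from -0.05 to 0.30, and none passed either test.

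Outside the clusters no gene was called without the block, and *pcdh12* was called with it. In mice and humans *pcdh12* encodes an endothelial protocadherin that sits at cell contacts beside VE-cadherin. It was at 3.93, 3.42, 3.60 and 4.01 in controls and at 4.39, 3.94, 4.41 and 4.53 in mutants. Only the mutant of clutch 2 reached down into the range of the controls. The means were 3.74 ± 0.28 (SD, n = 4) and 4.32 ± 0.26 (SD, n = 4), a difference of 0.58 (SE 0.17, adjusted p = 0.211, limma). With the block the SE was 0.09 and the adjusted p 0.00458, and the differences within clutches were 0.46, 0.52, 0.81 and 0.52. The blocked call was kept without any 1 clutch, with adjusted p from 0.0132 to 0.0298.

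Of 11 endothelial markers, 10 had positive differences (57.6% of all genes did), with a median of 0.09, and 0 were called (0 at an unadjusted p under 0.05). With the block, 1 was called higher, beside 6.48% of all genes, the receptor kinase *tie1*, at 0.34 (adjusted p = 0.0235). The summed level of the 11 was 198 to 226 CPM in controls and 214 to 251 CPM in mutants. Their part in the difference of *pcdh12* was not tested.

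Apart from *pcdh12*, no protocadherin outside the clusters passed either test. *pcdh19*, in which human mutations cause epilepsy, was at 6.83, 6.89, 6.88 and 6.98 in controls and at 6.88, 7.10, 7.00 and 6.94 in mutants, a difference of 0.08 (adjusted p = 0.690). The groups overlapped. *pcdh17*, which in mice acts at synapses and growing axons, had a mean of 7.12 ± 0.13 over controls and of 7.15 ± 0.14 over mutants (SD, n = 4 each), a difference of 0.03 (adjusted p = 0.931). *pcdh1b* differed by 0.04 (adjusted p = 0.852).

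*pcdh8*, a delta gene known from paraxial mesoderm, was at 3.96, 3.25, 3.49 and 3.51 in controls and at 3.87, 3.72, 3.68 and 3.93 in mutants, a difference of 0.25 (adjusted p = 0.568). Control 1 was its highest library. *pcdh18b* was at 7.07, 6.51, 6.77 and 6.69 in controls and at 7.10, 6.89, 7.01 and 6.71 in mutants, a difference of 0.17 (adjusted p = 0.640). Its mutants were higher in each clutch, by little in clutches 1 and 4.

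The protocadherin that was lower in mutants in every clutch was *pcdh15b*. It was at 4.48, 4.58, 4.40 and 4.52 in controls and at 4.22, 4.47, 4.38 and 4.21 in mutants, a difference of -0.18 (SE 0.09, adjusted p = 0.493, and 0.200 with the block). The mutant of clutch 2 lay above the control of clutch 3, so the groups overlapped. Zebrafish *pcdh15b* is known to act in the retina. Beside the fall of photoreceptor markers given above, 6 of 8 listed hair cell markers were found, with a median difference of -0.03. Of these 6, 3 had positive differences (57.6% of all genes did). By either fit 0 were called (0 at an unadjusted p under 0.05). The channel genes *tmc1*, at -0.27 (adjusted p = 0.613, limma), and *tmc2a*, at -0.44 (adjusted p = 0.530), were lower in each clutch (14.4% of all genes). The summed level of the 6 was 58.7 to 70.1 CPM in controls and 57.4 to 65.7 CPM in mutants. The part of these cells in the values of *pcdh15b* was not tested. *pcdh20* and *pcdhb* each differed by -0.03. The 9 remaining genes outside the clusters all had positive differences, from 0.01 to 0.16, and none passed either test.

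The uneven direction came unequally from the clutches. In clutch 1 the mutant was higher for 33 of 65 protocadherins (50.8%, and 53.3% of all genes). In clutch 2 it was higher for 60 (92.3%, and 55.2% of all genes), in clutch 3 for 46 (70.8%, and 54.4%) and in clutch 4 for 47 (72.3%, and 51.9%). The clustered genes had median differences of 0.06, 0.40, 0.13 and 0.20 in clutches 1 to 4, and the genes outside the clusters -0.08, 0.21, 0.10 and 0.05. The control of clutch 2 stood low: only 9 of its 63 distinct rows lay above the mean of the controls, while 46 did in control 1. Over all 20409 genes, 9812 lay above it in control 2 and 11731 in control 1. Without control 2, or without clutch 2, 45 of 65 differences were positive. Without control 1, or without clutch 1, 58 were.

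**Figure D3:**
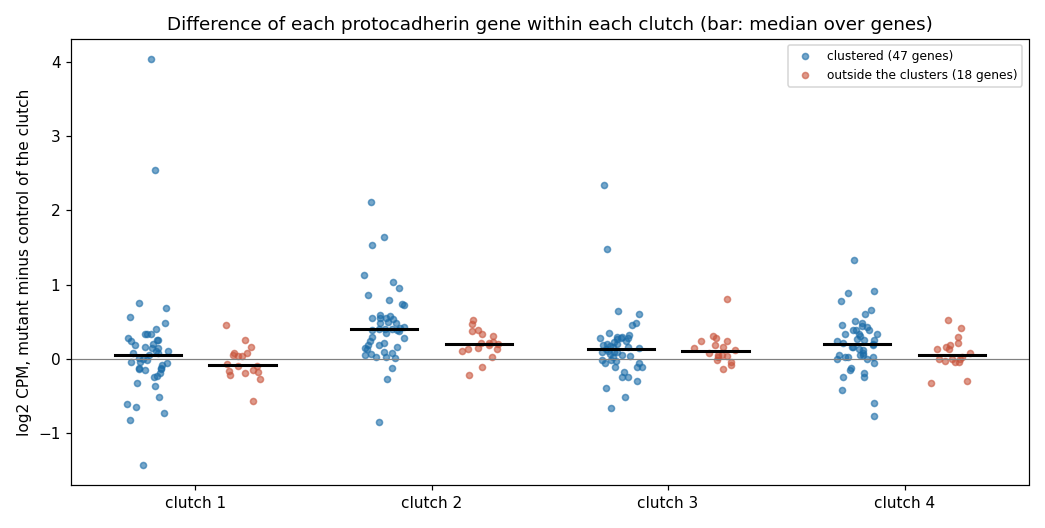
Difference of mutant minus control in log2 CPM (y axis) for each protocadherin in each of the 4 clutches (x axis), for clustered genes and genes outside the clusters, with black bars for the medians. Clutch 2 stands highest, with 60 of 65 differences above 0, and clutch 1 is spread around 0, with 33 of 65 above.

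The spread between control libraries was compared at matched levels. Over all clustered genes, the median SD over the 4 controls was 0.26, and that of the genes outside the clusters was 0.10. The log2 CPM of clustered genes, which is not per length, was also lower, with a median of 3.48 against 6.12. Among genes with a mean log2 CPM from 4 to 6, the median SD was 0.21 for clustered genes, 0.12 for the 5 protocadherins outside the clusters and 0.15 for all genes. From 2 to 4, it was 0.29 for clustered genes, 0.29 for the 3 outside the clusters and 0.20 for all genes. The clustered genes thus did not stand above those outside the clusters there. From 6 up, it was 0.19 for the 2 clustered genes, 0.08 for the 10 outside the clusters and 0.14 for all genes. Below 2, where no protocadherin outside the clusters lay, it was 0.46 for clustered genes and 0.34 for all genes.

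Summed over a subgroup on the linear scale, the levels rest less on how reads were split among its genes. These sums are given as values, with no test. The pcdh1g sum was 532, 429, 413 and 476 CPM in controls and 542, 497, 461 and 505 CPM in mutants, higher in each clutch. The means were 463 ± 53.6 and 501 ± 33.4 CPM (SD, n = 4 each), a ratio of 1.08. The difference was smaller than the SD of the controls, which includes differences between clutches. Within clutches 1 to 4 the ratios were 1.02, 1.16, 1.12 and 1.06.

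The pcdh2g sum was 161, 125, 142 and 156 CPM in controls and 158, 162, 167 and 182 CPM in mutants. Clutch 1 did not share the direction, and the ratio of means was 1.14. The pcdh2a sum was 78.4 ± 11.2 CPM in controls and 86.9 ± 2.8 CPM in mutants (SD, n = 4 each), and the pcdh1a sum was 103 ± 7.3 and 110 ± 7.4 CPM. Both were higher in 3 of 4 clutches. Over all clustered genes the sum was 790 ± 77.5 CPM in controls and 865 ± 31.2 CPM in mutants, with ratios of 1.00, 1.21, 1.1 and 1.09 in clutches 1 to 4. The genes outside the clusters summed to 1095 ± 35.4 and 1159 ± 48.9 CPM (SD, n = 4 each), a ratio of 1.06.

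**Figure D4:**
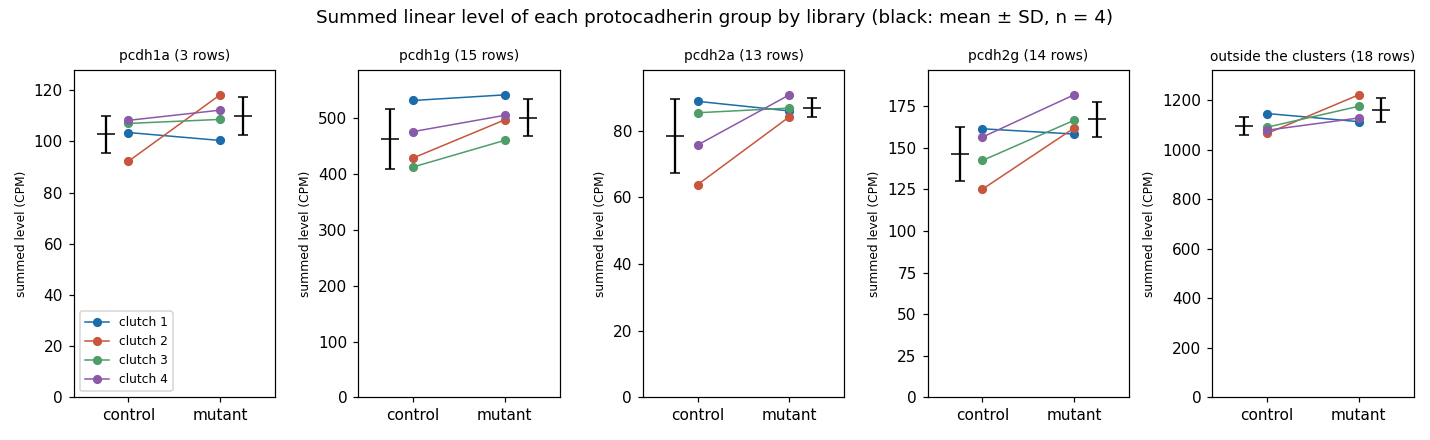
Summed CPM (y axis, from 0) of each protocadherin subgroup and of the 18 genes outside the clusters, in each control and mutant library, with lines joining a clutch and black bars for the mean ± SD of 4 libraries. The lines of clutch 2 climb in every panel, while those of clutch 1 change little, upward for pcdh1g and downward for the others.

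Genes that work with protocadherins were counted from lists. Of 12 genes of the WAVE complex, the actin regulator that binds the tails of delta protocadherins, 0 were called (0 at an unadjusted p under 0.05, and 0 with the block), with a median difference of 0.04. The same counts of 0 held for 7 kinases at the cytoplasmic tail, with a median of 0.02, and for 7 genes of shedding and gamma-secretase cleavage, also with 0.02. Of 23 genes for promoter choice in the clusters, which include *ctcf*, cohesin and DNA methyltransferases, 20 had positive differences (57.6% of all genes did), with a median of 0.11, and 0 were called (3 at an unadjusted p under 0.05, all higher, beside 5.84% of all genes). With the block, 3 were called higher, beside 6.48% of all genes. These are the cohesin genes *stag1a*, at 0.21 (adjusted p = 0.0619), and *stag2b*, at 0.18 (adjusted p = 0.0632), and the cohesin release factor *wapla*, at 0.23 (adjusted p = 0.0798).

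The wider cadherin family held 1 call without the block. *dchs2*, a Dachsous cadherin of the Fat pathway, fell by 0.59 on the log2 scale, from 3.66 ± 0.09 (SD, n = 4) to 3.07 ± 0.21 (SD, n = 4), with an SE of 0.12 and an adjusted p of 0.0722. It was the only one called of 17 listed Fat, Dachsous, Celsr and calsyntenin genes (1.16% of all genes were called lower). Of these 17, 14 had positive differences (57.6% of all genes). With the block, under which 6.48% of all genes were called higher, *celsr1b* at 0.39 (adjusted p = 0.0258), *dchs1a* at 0.34 (adjusted p = 0.0162), *fat2* at 0.31 (adjusted p = 0.0454) and *fat4* at 0.23 (adjusted p = 0.0696) were also called, all higher. Of 16 listed genes with *cdh* symbols, most of them classical cadherins, 0 were called (2 higher and 0 lower at an unadjusted p under 0.05, beside 5.84% and 6.11% of all genes). With the block, and beside the same 6.48%, *cdh11* at 0.28 (adjusted p = 0.0128), *cdh15* at 0.33 (adjusted p = 0.0283) and *cdh1* at 0.32 (adjusted p = 0.0357) were called higher.

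Markers of neurons, where most clustered protocadherins are used, went both ways. Of 12 pan-neuronal markers, 4 had positive differences (57.6% of all genes did), with a median of -0.12, and 0 were called. At an unadjusted p under 0.05, 1 was higher and 2 were lower, beside 5.84% and 6.11% of all genes. With the block, the RNA-binding protein gene *elavl3* was called higher, at 0.26 (adjusted p = 0.0984), and the synapsin gene *syn1*, at -0.24 (adjusted p = 0.0375), and the neurofilament gene *nefma*, at -0.40 (adjusted p = 0.00266), were called lower. All genes were called higher in 6.48% and lower in 7.86% under the block. The summed level of the 12 was 2653 to 2940 CPM in controls and 2745 to 2962 CPM in mutants. Of 11 markers of neural progenitors and proliferation, 9 had positive differences (57.6% of all genes did). By either fit 0 were called (0 at an unadjusted p under 0.05). Their summed levels were 813 to 935 CPM in controls and 722 to 1173 CPM in mutants. The part of these cell types in the protocadherin values was not tested.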

How the data were processed

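Whole-larva RNA was measured in 4 control and 4 *elipsa* mutant libraries, grouped by the sample titles. The authors filtered reads with SOAPnuke, aligned them with HISAT and Bowtie2 and counted them per gene with RSEM. The submitters' processing notes name the build GRCz11. The deposited table holds log2 CPM values that the authors made with voom for 20409 genes. They look quantile-normalised, a step not given in the sources used here: sorted, the columns almost coincide, and on the linear scale each library totals 997999 to 998008, so depth cannot be read from it and no limit from counting was set. The authors' comparison table holds fold changes, mean levels, test statistics and p-values. Only its gene identifiers and symbols were used.

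Mutants were compared with controls on the deposited values by limma 3.58.1 in R 4.3.3 (empirical Bayes with a mean-variance trend, two-sided, no clutch term), with Benjamini-Hochberg adjustment over all 20409 genes, and tested on simulated data. All deposited genes stayed in, without a pseudocount. The study's methods had already removed genes with a low average count over all samples, so further protocadherins may be absent. The clutch block was the alternative. Per the study's methods, both tubes of a batch were handled at the same time. Over all genes, the 2 libraries of a clutch deviated together from their groups' means, with correlations of 0.640, 0.325, 0.334 and 0.458 for clutches 1 to 4, each library correlating best with the other of its clutch. Other alternatives were no trend, precision weights, a pseudocount of 1, a floor of 1 on the mean log2 value, re-centring on 10 housekeeping genes, leaving out libraries or clutches and an adjusted p under 0.05. Sums count identical rows once, and would thus miss reads that were divided between the genes of such a pair. RefSeq (assembly GRCz12tu) gave names and gene order only.

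Named protocadherins are those called with or without the block, those with no overlap between groups, the 3 with the highest values and the 3 largest differences in each direction in each class, *pcdh19* and *pcdh15b*, and from other lists up to 3 called genes by smallest p. *fat4*, *pcdh2g6* and *pcdh2ab10* were added after their values were seen. Members and lists were chosen with earlier results of these data known. Figures were drawn with matplotlib 3.10.9.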

Additional observations from a re-analysis of the deposited data

Results flagged for a closer look

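Among 25 named protocadherins, the 4 controls and the 4 mutants of each were searched for a library far from the rest, 50 groups in all. In 2 of them the gap to the nearest library, divided by the range of the group, was above Dixon's critical value for 4 values, and chance gives about 1 in 20 groups. *pcdh2g3* was at -1.21 in control 2 (gap over range 0.941), the library that was low for most protocadherins. *pcdh2g5* was at 3.90 in mutant 2 (gap over range 0.853), where the 4 mutants spanned a narrow range.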

How the results depend on the processing

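The count of clustered protocadherins called higher, 1 in the comparison without a clutch term, was 9 with the replicate block, 0 with no trend and 0 at an adjusted p under 0.05. It ran from 0 to 1 when single libraries were left out, and was 0 when any 1 clutch was left out. In the blocked (paired) fits without clutches 1, 2, 3 and 4 it was 6, 3, 1 and 2. Of all 20409 genes, those 4 fits called 1239, 577, 367 and 491 higher, against 1322 in the blocked fit of all clutches. Calls thus became fewer over the whole set of genes as well. The call of *pcdh2g7* stood with precision weights, the minimum level, the pseudocount and the housekeeping re-centring. With the pseudocount the difference of *pcdh2g7* was 1.38, against 1.87 without it. Outside the clusters, 0 genes were called higher, 1 with the replicate block, and 3, 1, 1 and 1 in the blocked fits without clutches 1 to 4. The log2 ratio of the pcdh1g sum was 0.12, and 0.26 as a mean of the genes' log2 values, where *pcdh1g1* weighs as much as any other. No direction of a called gene reversed. Counting identical rows once, or *pcdh1a* with the clusters, was tried after the data were seen. The blocked fits without a clutch, with a pseudocount and with re-centring were also added then. With identical rows counted once, the block called 9 protocadherins higher, 8 of them clustered. With the block and housekeeping re-centring 7 protocadherins were called higher, beside 972 of all genes. With the block and a pseudocount 10 were, beside 1383 of all genes. Depth is unknown, so the precision of low genes such as *pcdh1g1* and *pcdh2g7* could not be estimated from counts.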
